A study of Homo sapiens with 8 samples.

Results

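The integrated stress response is represented here by 10 genes, ATF4, DDIT3, DDIT4, CHAC1, TRIB3, ASNS, SESN2, PPP1R15A, CEBPB and XBP1, followed across 4 treatments of DU145 cells, a human prostate cancer cell line. Their probesets were taken as those to which the array platform's annotation gives 1 of these symbols. This gave 11 of the 33297 probesets, with 2 for ATF4 and 1 for each of the others, and all 11 stayed in when the dimmest 20% of probesets were left out. RNA was measured on 8 Affymetrix Human Gene ST arrays, 2 per group and labelled as biological replicates. In the FGF19 + TNFα group, serum-starved cells were given FGF19 at 50 ng/ml together with heparin at 100 µg/ml, and TNFα at 50 ng/ml was added 10 min later. The TNFα group received TNFα alone for 90 min, the FGF19 group received FGF19 with heparin for 100 min, and the Mock group received neither. The doses and times are those of the sample labels; the study's methods give a lower dose of heparin and of TNFα. Heparin was added wherever FGF19 was added, so the effects of FGF19 and of heparin cannot be told apart. DU145 is a single line, and the 2 arrays of a group give p-values that measure only the spread between these samples.

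FGF19 is a secreted growth factor whose main receptor is the tyrosine kinase FGFR4. TNFα drives inflammation and activates IKKβ and NFκB. In the integrated stress response, kinases that sense amino acid shortage, heme shortage, viral RNA or misfolded protein in the endoplasmic reticulum phosphorylate the translation factor eIF2α. Bulk protein synthesis then falls while ATF4 mRNA is translated more, and the ATF4 protein switches on genes for amino acid supply, redox defence and, under lasting stress, cell death. Because ATF4 is controlled largely at translation, an array reports the supply of its mRNA and not the amount of its protein. Expression arrays of this design likewise do not tell the spliced from the unspliced XBP1 mRNA.

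The promoter sequences show which of the 10 genes carry, next to their start site, the short elements to which ATF4 and related factors bind. RefSeq promoter windows on GRCh38.p14, which run 250 bases before to 50 bases after a start site, were matched by symbol for 10 of the 10 genes and gave 17 windows. The C/EBP-ATF response element, spelled TGATGNAA on either strand, was present in windows of CHAC1 and ASNS, and in 3.62% of all 35116 windows. The cAMP response element, TGACGTCA, was present in a window of PPP1R15A and in 1.85% of all windows. The endoplasmic reticulum stress element was present in a window of XBP1 and in 0.0769% of all windows. The 250 bases upstream of these 4 start sites are given on GRCh38.p14, read 5′ to 3′ along the gene, with the matched element in capitals.
CHAC1, chr15:40953221-40953470, plus strand: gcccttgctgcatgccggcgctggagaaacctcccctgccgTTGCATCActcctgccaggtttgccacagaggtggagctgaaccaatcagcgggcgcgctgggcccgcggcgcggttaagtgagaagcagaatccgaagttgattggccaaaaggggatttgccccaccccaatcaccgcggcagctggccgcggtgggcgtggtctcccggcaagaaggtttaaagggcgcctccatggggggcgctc
ASNS, chr7:97872409-97872658, minus strand: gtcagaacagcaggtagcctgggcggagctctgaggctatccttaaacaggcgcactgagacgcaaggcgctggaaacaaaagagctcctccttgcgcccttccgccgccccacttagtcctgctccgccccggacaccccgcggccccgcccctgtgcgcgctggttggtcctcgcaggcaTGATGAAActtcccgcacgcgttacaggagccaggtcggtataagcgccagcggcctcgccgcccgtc
PPP1R15A, chr19:48872171-48872420, plus strand: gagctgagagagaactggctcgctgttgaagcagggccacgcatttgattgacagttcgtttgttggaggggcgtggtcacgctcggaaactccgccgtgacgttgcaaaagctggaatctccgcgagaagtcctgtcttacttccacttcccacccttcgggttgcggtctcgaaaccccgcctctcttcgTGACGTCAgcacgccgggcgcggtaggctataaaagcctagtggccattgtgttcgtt
XBP1, chr22:28800570-28800819, minus strand: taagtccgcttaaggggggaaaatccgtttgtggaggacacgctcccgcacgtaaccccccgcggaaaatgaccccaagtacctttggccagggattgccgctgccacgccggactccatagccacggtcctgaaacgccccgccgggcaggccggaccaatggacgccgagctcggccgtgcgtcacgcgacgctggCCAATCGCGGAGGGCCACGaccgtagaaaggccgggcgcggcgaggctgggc
Counted in bases from the start site, the element began at -209 in CHAC1, on the opposite strand, at -68 in ASNS, at -58 in PPP1R15A and at -52 in XBP1. A 10-base NFκB consensus was found in windows of SESN2 and CEBPB, and in 11.3% of all windows. The windows of ATF4, DDIT3, DDIT4 and TRIB3 held none of these letters. A match is a description of the sequence, and binding was not measured.

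**Figure D1:**
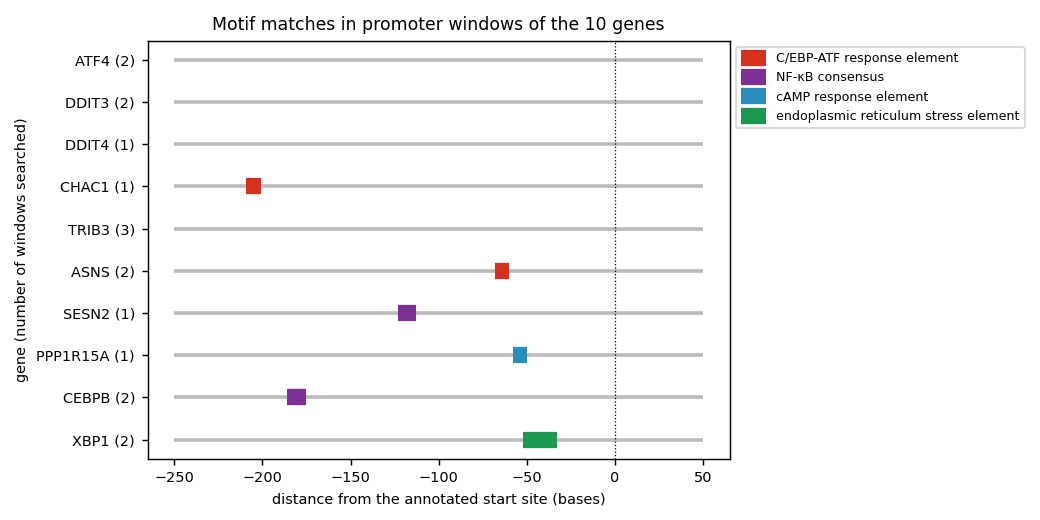
Positions of the element matches in the promoter windows of the 10 genes, in bases from the start site on the x axis, with 1 row per gene, the number of its windows in parentheses and 1 colour per element. CHAC1 and ASNS carry the C/EBP-ATF response element at -209 and -68, and PPP1R15A the cAMP response element at -58.

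With FGF19, the mRNAs of ATF4 and of 4 stress genes around it, DDIT3, DDIT4, CHAC1 and TRIB3, were lower than in Mock cells, while PPP1R15A was higher and ASNS, SESN2 and CEBPB differed by 0.03 or less on the log2 scale. The same 5 genes were lower in FGF19 + TNFα cells than in TNFα cells, where SESN2 and XBP1 were lower as well. Differences were tested on log2 signal with limma across all probesets, and were called at a Benjamini-Hochberg adjusted p under 0.05. Of the 11 probesets, 6 were called lower and 1 higher in FGF19 against Mock, beside 14.1% of all probesets called lower and 18.2% called higher, or 32.2% in either direction. Among the 19460 probesets with 1 gene symbol, 17% were lower and 19.9% higher. In FGF19 + TNFα against TNFα, 8 were called lower and 0 higher, beside 12.9% of all probesets lower and 19.4% higher, or 32.4% in either direction, and 15.4% lower and 21.8% higher among those with 1 symbol. In that comparison 8 of the 11, and 14743 of all 33297 probesets, had an unadjusted p under 0.05; the fit without moderated variances called 7 of the 11 and 8398 of all. The median log2 difference of the 11 was -0.66 in FGF19 against Mock, beside 0.08 over all probesets, and -0.67 in FGF19 + TNFα against TNFα, beside 0.10. These 2 comparisons share no array. Both use the spread estimated from all 8 arrays, so their p-values are not independent of each other. The arrays themselves also differed with FGF19, since the 20th percentile of signal was 34.6 to 36.6 on the 4 arrays given FGF19 and 30.7 to 31.6 on the 4 arrays without it; its part in the results was not tested. Without Mock replicate 1 or Mock replicate 2, 4 of the 11 were called in FGF19 against Mock, and without TNFα replicate 1, 4 were called in FGF19 + TNFα against TNFα. In that comparison 5 were called without TNFα replicate 2, without FGF19 + TNFα replicate 1 or without FGF19 + TNFα replicate 2.

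**Figure D2:**
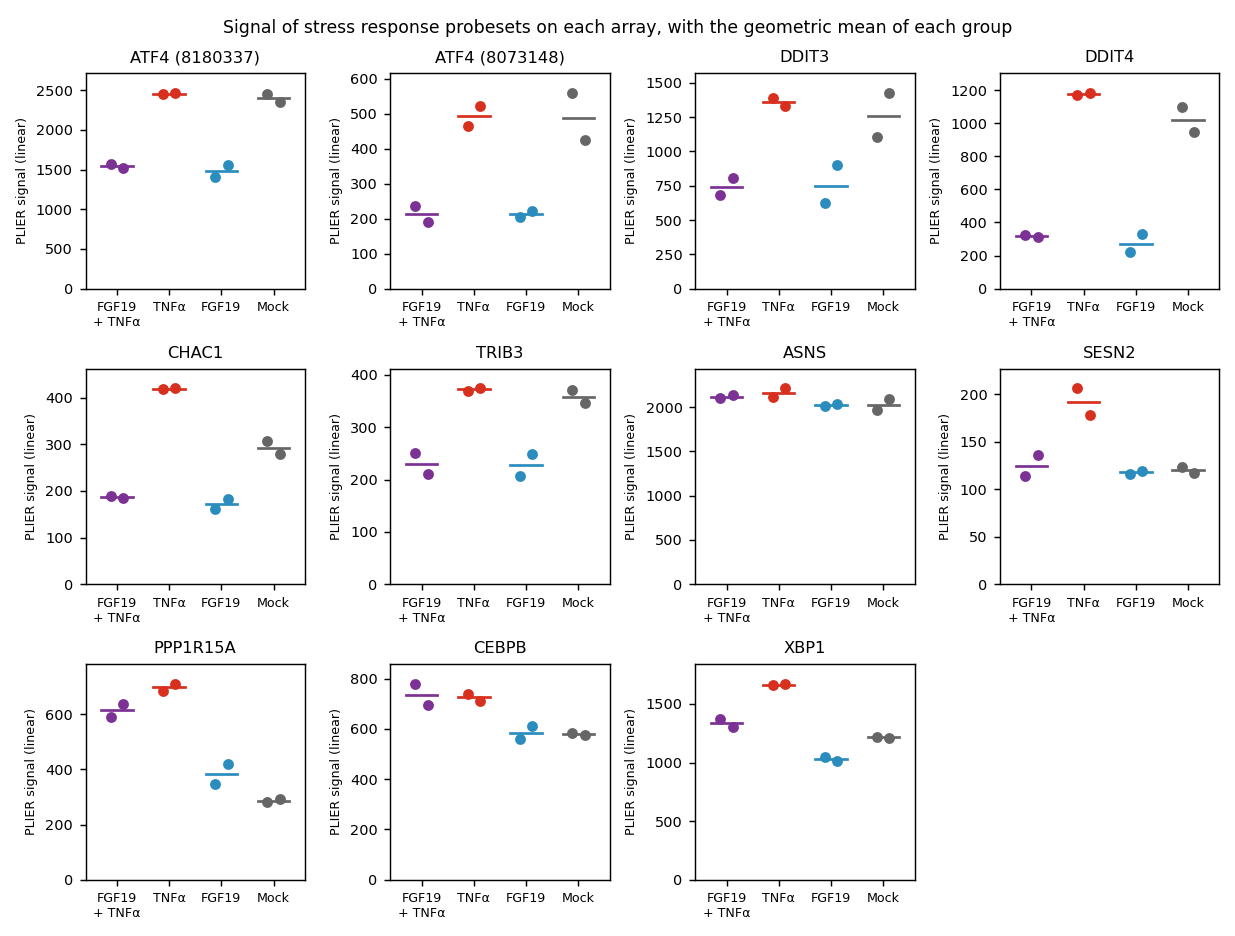
Deposited signal of the 11 probesets on each of the 8 arrays, on a linear axis that starts at 0, with 1 panel per probeset, 1 point per array, a line at the geometric mean of each group and the groups ordered FGF19 + TNFα, TNFα, FGF19 and Mock. In both ATF4 panels, DDIT3, DDIT4, CHAC1 and TRIB3, the 4 arrays given FGF19 lie below the 4 arrays without it, while PPP1R15A is lowest on the 2 Mock arrays. The share of all probesets that separate in this way was not counted.

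ATF4, the transcription factor at the centre of the response, was measured by 2 probesets of a gene on chromosome 22. Probeset 8180337 gave signals of 1570 and 1523 in FGF19 + TNFα cells and 2447 and 2467 in TNFα cells. It gave 1405 and 1562 in FGF19 cells and 2453 and 2353 in Mock cells. The 4 arrays given FGF19 were all below the 4 without it. How many of all probesets separate without overlap was not counted, for this gene or for the others. The log2 difference was -0.70 ± 0.089 (SE, n = 2 arrays each; limma adjusted p = 0.00359) in FGF19 against Mock, a 1.62-fold lower signal. It was -0.67 ± 0.089 (limma adjusted p = 0.00449) in FGF19 + TNFα against TNFα.

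The other ATF4 probeset, 8073148, gave 236 and 191 in FGF19 + TNFα cells and 465 and 523 in TNFα cells. It gave 203 and 221 in FGF19 cells and 559 and 424 in Mock cells, again with no overlap between arrays with and without FGF19. The log2 differences were -1.20 ± 0.172 (SE; limma adjusted p = 0.00466) in FGF19 against Mock and -1.22 (limma adjusted p = 0.00513) in FGF19 + TNFα against TNFα. Both probesets kept the call and the direction under every one of the 16 alternative settings in both comparisons. The probesets carry different RefSeq accessions but measure 1 gene, and their sizes of change were not tested against each other.

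DDIT4, also called REDD1, restrains the growth kinase mTORC1 under stress, and it had the largest fall of the 11. Its signal was 322 and 312 in FGF19 + TNFα cells, against 1169 and 1184 in TNFα cells, and 222 and 329 in FGF19 cells, against 1099 and 950 in Mock cells. Every array given FGF19 lay below every array without it, by a gap from 329 to 950. The log2 difference was -1.92 ± 0.188 (SE; limma adjusted p = 0.00276) in FGF19 against Mock, 3.78-fold lower, and the 239th largest in absolute size among all probesets. It was -1.89 (limma adjusted p = 0.00348) in FGF19 + TNFα against TNFα, 3.71-fold lower. The call held under all 16 alternatives in both comparisons. The probesets whose log2 pattern over the 8 arrays was most like that of DDIT4, among 17131 searched, were those of MYBBP1A and PLEK2 (Pearson r = 0.999 each) and of ZDHHC12 (r = 0.998); the arrays share their groups, so this describes a pattern only.

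CHAC1 encodes an enzyme that breaks down glutathione and is a direct target of ATF4; its promoter is the first of those given. Its signal was 190 and 184 in FGF19 + TNFα cells and 418 and 420 in TNFα cells. It was 162 and 182 in FGF19 cells and 307 and 278 in Mock cells. The arrays with and without FGF19 did not overlap, and the 2 TNFα arrays were the brightest. CHAC1 fell by 0.77 on the log2 scale in FGF19 against Mock (SE 0.0985; limma adjusted p = 0.00361) and by 1.16 in FGF19 + TNFα against TNFα (limma adjusted p = 0.00348), and kept both calls in all 16 alternatives.

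TRIB3 encodes a pseudokinase that is induced by ATF4 and CHOP and restrains the kinase Akt. It gave 251 and 211 in FGF19 + TNFα cells, against 370 and 374 in TNFα cells, and 207 and 250 in FGF19 cells, against 372 and 346 in Mock cells. Again no array given FGF19 reached the level of an array without it. The log2 differences were -0.66 ± 0.131 (SE; limma adjusted p = 0.0125) in FGF19 against Mock and -0.69 (limma adjusted p = 0.0115) in FGF19 + TNFα against TNFα. The call in FGF19 against Mock was lost without Mock replicate 1 or Mock replicate 2 (adjusted p up to 0.0723), and that in FGF19 + TNFα against TNFα without TNFα replicate 1, TNFα replicate 2 or FGF19 + TNFα replicate 2 (up to 0.0635).

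DDIT3 encodes CHOP, a bZIP factor that promotes death in prolonged stress. Its signal was 679 and 804 in FGF19 + TNFα cells, against 1386 and 1333 in TNFα cells, and 626 and 901 in FGF19 cells, against 1108 and 1428 in Mock cells. The arrays with and without FGF19 did not overlap, although the FGF19 and Mock pairs were each spread widely. The log2 differences were -0.74 ± 0.209 (SE; limma adjusted p = 0.0387) in FGF19 against Mock and -0.88 (limma adjusted p = 0.0234) in FGF19 + TNFα against TNFα. The call in FGF19 against Mock was lost in 9 of 16 alternatives (adjusted p up to 0.18), and that in FGF19 + TNFα against TNFα in 5, among them each one without an array of either group (adjusted p up to 0.102).

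**Figure D3:**
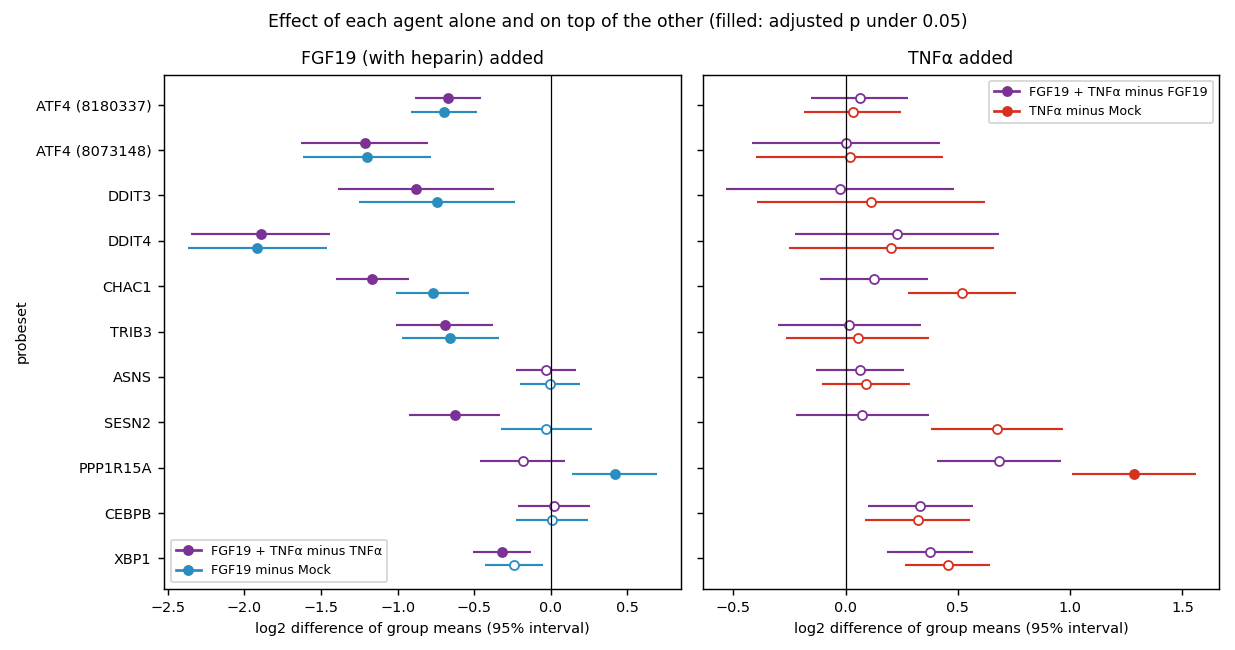
Log2 differences of group means with 95% intervals for the 11 probesets, with the effect of adding FGF19 in the left panel and of adding TNFα in the right panel, and filled points for an adjusted p under 0.05. In the left panel the points for ATF4, DDIT3, DDIT4, CHAC1 and TRIB3 lie left of 0 in both comparisons, and in the right panel the filled point is PPP1R15A in TNFα minus Mock.

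ASNS, asparagine synthetase, is a classical ATF4 target and carries the C/EBP-ATF response element closest to its start site in the sequences given, yet its signal differed little between groups. It was 2104 and 2131 in FGF19 + TNFα cells and 2110 and 2212 in TNFα cells, and 2012 and 2037 in FGF19 cells and 1969 and 2089 in Mock cells. The 8 values lay between 1969 and 2212. The 95% interval of the log2 difference in FGF19 against Mock was -0.20 to 0.19, which leaves out changes as large as those of ATF4 or CHAC1. The 16 alternatives gave no call for ASNS in either comparison with FGF19, and its sign turned with quantile normalization and with cyclic loess in FGF19 against Mock.

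SESN2, sestrin 2, senses leucine and restrains mTORC1. Its signal was 114 and 135 in FGF19 + TNFα cells, against 206 and 178 in TNFα cells, and 116 and 119 in FGF19 cells, against 124 and 117 in Mock cells. The TNFα pair stood above the other 6 arrays, which ranged from 114 to 135. SESN2 was lower in FGF19 + TNFα than in TNFα cells, at a log2 difference of -0.63 (limma adjusted p = 0.0123), and the call was lost without TNFα replicate 1 or FGF19 + TNFα replicate 1 (adjusted p = 0.0656 and 0.0556). In FGF19 against Mock the log2 difference was -0.03 (limma adjusted p = 0.882).

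XBP1 encodes a bZIP factor of the unfolded protein response. It gave 1371 and 1303 in FGF19 + TNFα cells, against 1659 and 1671 in TNFα cells, and 1043 and 1016 in FGF19 cells, against 1220 and 1210 in Mock cells. The TNFα pair was the highest and the FGF19 pair the lowest, with no overlap between any 2 groups. The log2 difference was -0.32 (limma adjusted p = 0.0262) in FGF19 + TNFα against TNFα, a call lost in 7 of 16 alternatives, and -0.24 (limma adjusted p = 0.0625) in FGF19 against Mock. In FGF19 against Mock it was called in 3 of 16 alternatives, with quantile normalization, with no moderation of the variances and with the trended and robust prior (adjusted p = 0.0439, 0.0148 and 0.0206).

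PPP1R15A, also called GADD34, directs protein phosphatase 1 to eIF2α and so brings the response to an end. It was higher than in Mock cells in all 3 treatments. Its signal was 592 and 638 in FGF19 + TNFα cells and 685 and 711 in TNFα cells. It was 348 and 421 in FGF19 cells and 281 and 292 in Mock cells. The 4 groups did not overlap, with Mock lowest and TNFα highest, but the neighbours TNFα and FGF19 + TNFα were not separated by the test (log2 difference -0.18; limma adjusted p = 0.264). PPP1R15A was the single one of the 11 probesets called in TNFα against Mock, beside 1.06% of all probesets (0.967% higher and 0.0961% lower; 1.24% and 0.0668% among those with 1 symbol), at a log2 difference of 1.29 ± 0.114 (SE; limma adjusted p = 0.007), 2.44-fold higher. That call was lost without Mock replicate 1, Mock replicate 2 or TNFα replicate 2 (adjusted p = 0.0802, 0.0745 and 0.0688), with log2 differences of 1.26 to 1.31. In FGF19 against Mock it was 0.42 ± 0.114 (SE; limma adjusted p = 0.0351), a call lost in 9 of 16 alternatives. The probesets most like it in pattern over the 8 arrays were those of TRIM36 (r = 0.994), SAMD4A (r = 0.993) and JAG1 (r = 0.989).

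CEBPB encodes C/EBPβ, a bZIP factor that can pair with ATF4 and with CHOP and that also acts in inflammatory gene expression. Its signal was 779 and 695 in FGF19 + TNFα cells and 739 and 712 in TNFα cells, and 559 and 611 in FGF19 cells and 583 and 577 in Mock cells. The 4 arrays given TNFα lay above the 4 arrays without it. It was called higher in FGF19 + TNFα against Mock (log2 difference 0.34; limma adjusted p = 0.0373), where 2 of the 11 were called higher and 6 lower, beside 19.3% and 14.7% of all probesets (21.5% and 17.3% of those with 1 symbol), or 33.9% in either direction. That call was lost in 8 of 16 alternatives. In TNFα against Mock the log2 difference was 0.32 (limma adjusted p = 0.264). SOWAHB (r = 0.994), BPGM (r = 0.969) and SERPINA1 (r = 0.967) had the most similar patterns.

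Apart from PPP1R15A, adding TNFα gave no called difference among the 11. In TNFα against Mock the 11 had a median log2 difference of 0.20, beside -0.04 over all probesets. After PPP1R15A the largest differences were those of SESN2 (0.68, limma adjusted p = 0.0819), CHAC1 (0.52, adjusted p = 0.0952) and XBP1 (0.46, adjusted p = 0.072). They did not pass the threshold. With a trended and robust prior on the variances, with 16 added to the signal or with the dimmest 20% of probesets left out, these 3 were called. ATF4 differed by 0.03 and 0.02 for its 2 probesets, with 95% intervals of -0.18 to 0.25 and -0.40 to 0.44. In FGF19 + TNFα against FGF19, limma called 0 of the 11, beside 0.282% of all probesets (0.279% higher and 0.003% lower; 0.406% and 0% among those with 1 symbol). In that comparison 3 of the 11, and 2000 of all 33297 probesets, had an unadjusted p under 0.05. The 3 were PPP1R15A at 0.68, XBP1 at 0.38 and CEBPB at 0.33 on the log2 scale, and the fit without moderated variances called 0 of the 11 and 38 of all. The treatment itself was visible in NFκB target genes, since TNFAIP3, NFKBIA, CXCL8 and ICAM1 were all called higher in TNFα against Mock, with a median log2 difference of 1.95. Of 5 genes often induced by FGF signalling, SPRY4 was called higher in FGF19 against Mock (0.56) and FOS lower (-0.50), while DUSP6, EGR1 and SPRY2 were not called. In FGF19 + TNFα against TNFα 0 of the 5 were higher and DUSP6 (-0.33) and FOS (-0.54) were lower. SPRY4 (1.97) and DUSP6 (0.83) were also called higher in TNFα against Mock.

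Whether the effect of FGF19 differed with and without TNFα was tested as the interaction of the 2 agents. Limma called 0 of the 11 and 0 of all 33297 probesets, or 0%, and the fit without moderated variances called 0 as well; 3 of the 11 and 1715 of all had an unadjusted p under 0.05. The 3 were PPP1R15A (-0.60), SESN2 (-0.60) and CHAC1 (-0.39), whose limma adjusted p were 0.893, 0.924 and 0.96. For ATF4 the interaction was 0.03 and -0.02, for DDIT4 0.03 and for TRIB3 -0.04 on the log2 scale. SESN2 was called lower with FGF19 in the presence of TNFα and was not called in its absence, but the difference between these effects did not pass the test. The moderated F test over the 4 groups, at an adjusted p under 0.015, called 8 of the 11, beside 20.9% of all probesets.

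**Figure D4:**
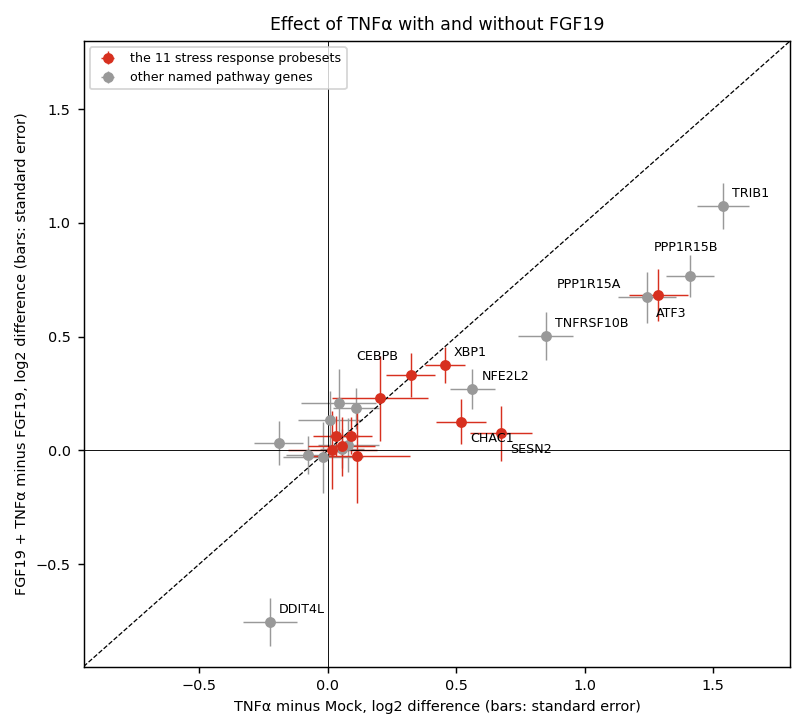
Log2 difference of FGF19 + TNFα minus FGF19 on the y axis against TNFα minus Mock on the x axis, with standard errors. The 11 probesets are in red, and the dashed line marks equal effect. Grey points are only the pathway genes named by rule, each with the smallest p among the called genes of its list. Some were chosen in TNFα against Mock, the comparison on the x axis. PPP1R15A lies at 1.29 on the x axis and 0.68 on the y axis, and SESN2 and CHAC1 lie near 0 on the y axis.

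The wider pathway was described with 11 lists of 113 genes, of which 111 were measured, each by 1 probeset, the brightest with only its symbol. Among all probesets with 1 symbol, 19.9% were higher and 17% lower in FGF19 against Mock. In FGF19 + TNFα against TNFα 21.8% of them were higher and 15.4% lower. These shares are the closer comparison for every list below, beside which the shares of all probesets are given. In FGF19 against Mock 23 were called higher and 31 lower, or 48.6%, beside 32.2% of all probesets (18.2% higher and 14.1% lower), and 29 of these 54 calls held under all 16 alternatives. In FGF19 + TNFα against TNFα 18 were higher and 38 lower, or 50.5%, beside 32.4% (19.4% higher and 12.9% lower), and 25 of these 56 calls held under all 16. The count in FGF19 against Mock was 31 without Mock replicate 1 and 34 without Mock replicate 2. The count in FGF19 + TNFα against TNFα was 27 without TNFα replicate 1, 29 without TNFα replicate 2 and 26 without FGF19 + TNFα replicate 2. Of the genes named from the lists with FGF19, those whose call was lost in any alternative are stated as such.

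Upstream of ATF4, the 4 eIF2α kinases were all called higher in FGF19 against Mock, with log2 differences of 0.29 to 0.50, beside 18.2% of all probesets called higher, and 3 of 4 in FGF19 + TNFα against TNFα, beside 19.4%. The largest was EIF2AK2, which encodes the RNA-sensing kinase PKR, at 0.50 (limma adjusted p = 0.00702) and 0.56 (adjusted p = 0.0058). In FGF19 against Mock the call was lost in 8 of 16 alternatives for EIF2AK1, 3 for EIF2AK3 and 11 for EIF2AK4. In FGF19 + TNFα against TNFα it was lost in 4 of 16 for EIF2AK1 and 8 for EIF2AK3. Of 8 subunits of eIF2 and of its exchange factor eIF2B, 3 were lower and 1 higher in FGF19 against Mock, and 3 lower and 0 higher in FGF19 + TNFα against TNFα, beside 14.1% and 12.9% of all probesets lower. EIF2B5, the catalytic subunit of eIF2B, was at a geometric mean signal of 158 in FGF19 + TNFα cells and 251 in TNFα cells, and 155 in FGF19 cells and 287 in Mock cells. It fell by 0.89 on the log2 scale in FGF19 against Mock (limma adjusted p = 0.00287). Of 6 genes listed for the eIF2α phosphatase and its regulators, 1 was higher and 1 lower in FGF19 against Mock. These were 33.3% of the list, close to the 32.2% of all probesets called. In FGF19 + TNFα against TNFα 1 was higher and 2 lower, or 50%. Of all probesets 19.4% were higher and 12.9% lower in that comparison, or 32.4% in either direction. The higher one in both was DNAJC3, an inhibitor of the kinases and not a part of the phosphatase. It was higher by 1.14 (limma adjusted p = 0.00367) in FGF19 against Mock and by 1.30 (adjusted p = 0.00357) in FGF19 + TNFα against TNFα.

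PPP1R15B, the constitutive partner of PPP1R15A in targeting eIF2α, was called higher in TNFα against Mock, at 1.41 (limma adjusted p = 0.00235). Its geometric mean signal was 1492 in FGF19 + TNFα cells and 2525 in TNFα cells, and 878 in FGF19 cells and 951 in Mock cells. It was lower by 0.76 on the log2 scale in FGF19 + TNFα than in TNFα cells (adjusted p = 0.00383). Besides PPP1R15B, 3 of the 111 pathway genes were called in TNFα against Mock, all higher, or 3.6% together, beside 1.06% of all probesets. Among probesets with 1 symbol 1.24% were higher and 0.0668% lower in that comparison. These were TRIB1, a pseudokinase related to TRIB3 (1.54; adjusted p = 0.00238), the stress factor ATF3 (1.24; adjusted p = 0.0073) and TNFRSF10B, the death receptor DR5 (0.85; adjusted p = 0.0251). The calls of ATF3 and TNFRSF10B in TNFα against Mock were lost in 4 and 9 of 16 alternatives, and the count of 4 was 2 without Mock replicate 1, Mock replicate 2, TNFα replicate 1 or TNFα replicate 2. It was 7 with 16 added to the signal, without the dimmest 20% of probesets or with the trended and robust prior.

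Among the targets of ATF4, the genes of amino acid and one-carbon synthesis had 7 lower and 1 higher of 10 in FGF19 against Mock, beside 14.1% lower and 18.2% higher of all probesets, at a median log2 difference of -0.39. They had 6 lower and 1 higher in FGF19 + TNFα against TNFα, beside 12.9% and 19.4%, at a median of -0.44. In FGF19 against Mock the lower calls of PSAT1, PCK2, PHGDH and MTHFD2 were lost in 12, 8, 5 and 2 of 16 alternatives. In FGF19 + TNFα against TNFα those of PHGDH, PSPH and PCK2 were lost in 3, 3 and 4 of 16. PYCR1, the last enzyme of proline synthesis in mitochondria, averaged 159 in FGF19 + TNFα cells and 485 in TNFα cells, and 162 in FGF19 cells and 491 in Mock cells (geometric means of signal). Its log2 differences were -1.60 (limma adjusted p = 0.00276) and -1.61 (adjusted p = 0.00348). SHMT2, a mitochondrial enzyme of serine and glycine exchange, fell by 1.33 and 1.31 on the log2 scale in these comparisons. The one that rose was ALDH1L2, a mitochondrial folate enzyme, by 1.01 and 0.99; its call in FGF19 + TNFα against TNFα was lost in 1 alternative. Of 10 amino acid transport genes, 2 were lower and 1 higher in FGF19 against Mock, and 4 were lower and 0 higher in FGF19 + TNFα against TNFα. These shares, 30% and 40% of the list, were near the 32.2% and 32.4% of all probesets called in either direction. Of all probesets 14.1% were lower and 18.2% higher in the former comparison, and 12.9% lower and 19.4% higher in the latter. The lower calls of SLC7A5 and SLC6A9 in FGF19 + TNFα against TNFα were lost in 3 and 4 of 16 alternatives. The list's medians were 0.00021 and 0.0063. SLC1A5, a glutamine transporter, fell by 0.94 and 1.00, and SLC3A2, the heavy chain shared by several amino acid transporters, by 0.84 and 0.88 on the log2 scale.

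Among 15 other targets of ATF4 and CHOP, 4 were lower and 2 higher in FGF19 against Mock, and 5 were lower and 1 higher in FGF19 + TNFα against TNFα. These were 40% of the list in each, beside 32.2% and 32.4% of all probesets called in either direction, with medians of -0.12 and 0.02. Of all probesets 14.1% were lower and 18.2% higher in the former comparison, and 12.9% lower and 19.4% higher in the latter. TNFRSF10B, a CHOP target as well as a TNF receptor family member, averaged 933 in FGF19 + TNFα cells and 2216 in TNFα cells, and 658 in FGF19 cells and 1231 in Mock cells. It was lower by 0.90 on the log2 scale in FGF19 against Mock (limma adjusted p = 0.00318) and by 1.25 in FGF19 + TNFα against TNFα (adjusted p = 0.00348). Of 12 related bZIP factors, 4 were higher and 1 lower in FGF19 against Mock, beside 18.2% and 14.1% of all probesets, and 4 were higher and 3 lower in FGF19 + TNFα against TNFα, beside 19.4% and 12.9%. NFE2L2, the oxidative stress factor NRF2, was higher by 0.91 (adjusted p = 0.00276) in FGF19 against Mock. The 3 lower ones in FGF19 + TNFα against TNFα were NFE2L1 (-0.68), CEBPA (-0.90; call lost in 6 of 16 alternatives) and ATF3. ATF3 was lower in FGF19 + TNFα than in TNFα cells (-0.51; adjusted p = 0.0179), a call lost in 4 of 16 alternatives, and was not called in FGF19 against Mock (0.06).

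Of 6 close relatives of the 10 genes, 3 were higher and 0 lower in FGF19 against Mock, beside 18.2% and 14.1% of all probesets, and 2 were higher and 1 lower in FGF19 + TNFα against TNFα, beside 19.4% and 12.9%. DDIT4L, the paralog of DDIT4, averaged 130 in FGF19 + TNFα cells and 90.3 in TNFα cells, and 219 in FGF19 cells and 106 in Mock cells. It was higher by 1.05 on the log2 scale in FGF19 against Mock (limma adjusted p = 0.00278). In FGF19 + TNFα against TNFα DDIT4L was higher by 0.52, a call lost in 2 of 16 alternatives. DDIT4 was lower in both comparisons. SESN3, a paralog of SESN2, was higher by 1.02 in FGF19 against Mock and by 1.12 in FGF19 + TNFα against TNFα. TRIB1 was higher by 0.72 in FGF19 against Mock (adjusted p = 0.00453) and was not called in FGF19 + TNFα against TNFα (0.25; adjusted p = 0.105). CHAC2, a paralog of CHAC1, was the one called lower in FGF19 + TNFα against TNFα (-0.59), a call lost in 5 of 16 alternatives.

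In the unfolded protein response, to which XBP1 belongs, 7 of 20 target genes of XBP1 and ATF6 in the endoplasmic reticulum were lower and 0 higher in FGF19 against Mock, and 9 were lower and 1 higher in FGF19 + TNFα against TNFα. The share called in FGF19 against Mock, 35%, was near the 32.2% of all probesets called in either direction, of which 14.1% were lower, and in FGF19 + TNFα against TNFα it was 50%, beside 32.4%, of which 12.9% were lower. SEC61B, a subunit of the translocation channel, averaged 356 in FGF19 + TNFα cells and 767 in TNFα cells, and 324 in FGF19 cells and 762 in Mock cells. Its log2 difference was -1.11 in FGF19 + TNFα against TNFα (limma adjusted p = 0.00361) and -1.23 in FGF19 against Mock (adjusted p = 0.00281). HSPA5, the chaperone BiP and the usual marker of this response, was not called in FGF19 against Mock (-0.11; adjusted p = 0.327). Of 7 sensors and partners, 3 were higher and 2 lower in FGF19 against Mock, and 2 higher and 2 lower in FGF19 + TNFα against TNFα, beside the shares of all probesets just given. CREB3, a membrane-bound bZIP factor, was lower by 1.10 on the log2 scale in FGF19 against Mock (limma adjusted p = 0.00275).

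The mTORC1 genes on which DDIT4 and the sestrins act had 3 higher and 4 lower of 13 in FGF19 against Mock, beside 18.2% higher and 14.1% lower of all probesets, and 3 higher and 3 lower in FGF19 + TNFα against TNFα, beside 19.4% and 12.9%. TSC1, a subunit of the complex that holds mTORC1 in check, was higher by 0.94 (limma adjusted p = 0.00275) in FGF19 against Mock and by 0.89 in FGF19 + TNFα against TNFα. RHEB, the small GTPase that activates mTORC1, was lower by 0.72 and 0.79 on the log2 scale in these comparisons.

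**Figure D5:**
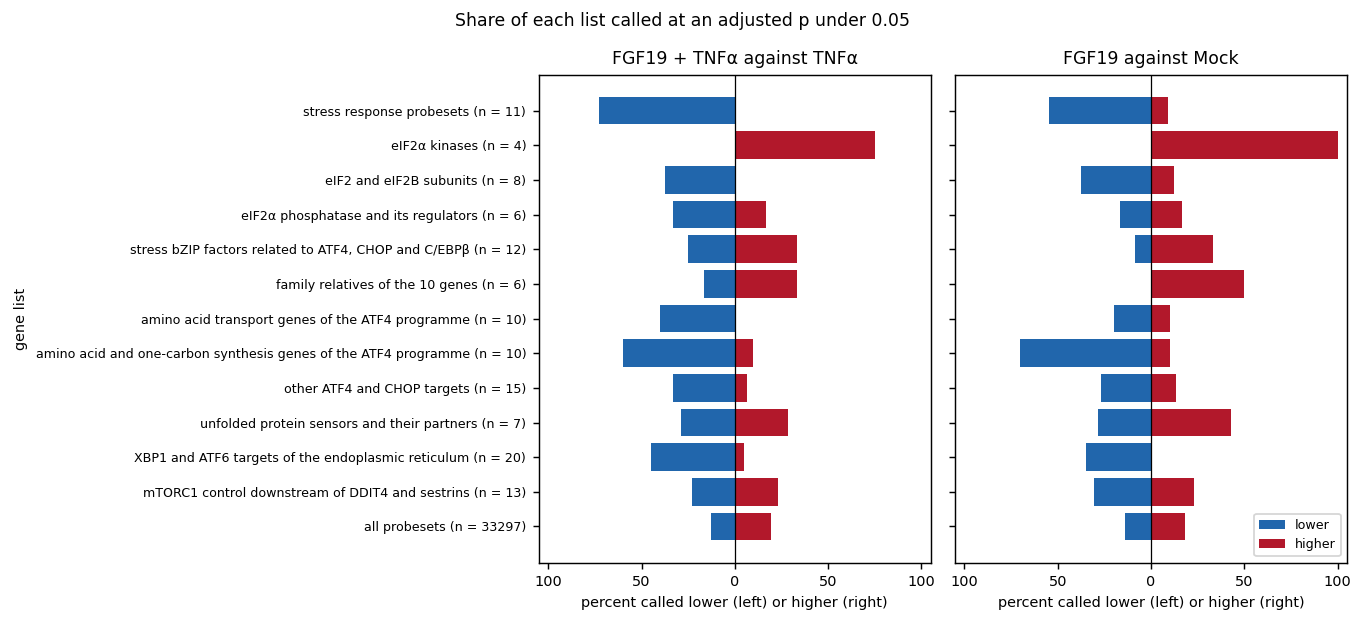
Percent of each gene list called lower (blue, left of 0) and higher (red, right of 0) at an adjusted p under 0.05, for FGF19 + TNFα against TNFα and for FGF19 against Mock, with the number of measured probesets per list and all 33297 probesets in the bottom row. The bottom row includes probesets without a gene symbol, which the lists do not. The 11 stress response probesets and the amino acid and one-carbon synthesis genes lie mostly to the left, and the eIF2α kinases to the right.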

How the data were processed

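Signals of 33297 probesets on 8 arrays were taken from the deposited series table. The authors made this linear signal intensity with Affymetrix Expression Console and PLIER, per the labels' processing notes; the sources used here give neither a version nor a normalization. Zeros (240 values) were replaced by 0.01, the lowest signal above 0, and log2 was taken with no further normalization. In limma 3.58.1 (lmFit, eBayes; R 4.3.3), 1 model with 4 group means took in all 8 arrays, with Benjamini-Hochberg adjustment over all probesets; calls used an adjusted p under 0.05, and the F test 0.015. Intervals are 95% moderated intervals. The script was tested on simulated data.

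Of the probesets, 19460 had 1 symbol, 1754 several and 12083 none; 19429 symbols were updated to RefSeq through Entrez identifiers. Array medians were 99.5 to 106.6, and precision is limited by having 2 arrays per group. The epithelial markers KRT8, KRT18, EPCAM and CDH1 were present and PTPRC, PECAM1, COL1A1 and KLK3 dim, and KRT8 was lower in FGF19 against Mock (-1.05, called). Pathway genes were named by rule, as the gene of each list with the smallest p among those called in FGF19 against Mock and in TNFα against Mock. EIF2AK1, EIF2AK3, EIF2AK4, SHMT2, ALDH1L2, PSAT1, PCK2, PHGDH, MTHFD2, PSPH, SLC3A2, SLC7A5, SLC6A9, SESN3, CHAC2, NFE2L1, CEBPA, HSPA5 and RHEB were added after their values were seen. The genes and lists were chosen with earlier results of these data known. Settings for the other pathway genes were also added after seeing the data. Patterns were matched by Pearson correlation among probesets above the 20th percentile.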

Additional observations from a re-analysis of the deposited data

Results flagged for a closer look

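For PPP1R15A, both arrays of FGF19 cells were above both Mock arrays, while both arrays of FGF19 + TNFα cells were below both TNFα arrays, so that FGF19 went with a higher signal in the absence of TNFα and a lower one in its presence. The interaction was -0.602 on the log2 scale (SE 0.162; limma unadjusted p = 0.00926), and did not pass the adjustment over all probesets (limma adjusted p = 0.893).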

How the results depend on the processing

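Under 16 alternative settings the direction and the side of the threshold were kept in 926 of 1045 values of single probesets, a call was lost in 58, gained in 16, and the sign turned in 45, all of them values that were not called. In TNFα against Mock 4 of the 11 probesets were called with 16 added to the signal, 4 without the dimmest 20%, 4 with the trended and robust prior and 2 with no moderation of the variances, against 1 in the fit reported. In FGF19 against Mock 5 to 8 were called under the settings that kept all arrays, against 7 reported. The trended prior also called 2 in FGF19 + TNFα against FGF19, and with no moderation the F test called 5. When each array was left out in turn, 4 to 8 were called in FGF19 + TNFα against TNFα, 5 to 8 in FGF19 + TNFα against Mock, 4 to 6 in FGF19 against Mock, 0 to 1 in TNFα against Mock and 2 to 7 by the F test. ATF4 (both probesets), DDIT4 and CHAC1 kept every call with FGF19. The cause of these changes was not tested.

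Over all probesets, 10731 were called in FGF19 against Mock (7089 to 11723 under the other settings, 5755 to 9817 with an array left out), 354 in TNFα against Mock (103 to 632, and 90 to 284), 10773 in FGF19 + TNFα against TNFα (4480 to 11663 with an array left out), 94 in FGF19 + TNFα against FGF19 (0 to 232, and 6 to 50), 11295 in FGF19 + TNFα against Mock (5643 to 11995 with an array left out), 0 for the interaction (0 to 4, and 0 to 11) and 6966 by the F test (2474 to 9773, and 1115 to 6402). The median log2 difference of all probesets in FGF19 + TNFα against TNFα was 0.10 as deposited and 0.01 after quantile normalization.

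With quantile normalization ASNS turned to 0.071 in FGF19 against Mock and 0.029 in FGF19 + TNFα against TNFα, CEBPB to -0.0066 in FGF19 + TNFα against TNFα and to -0.028 for the interaction. With cyclic loess ASNS turned to 0.024 in FGF19 against Mock, CEBPB to -0.0041 for the interaction and ATF4 probeset 8073148 to -0.0013 in FGF19 + TNFα against FGF19. With an array left out, values changed sign in FGF19 against Mock for ASNS (-0.046 to 0.04), SESN2 (-0.068 to 0.012) and CEBPB (-0.053 to 0.074), and in TNFα against Mock for ATF4 8073148 (-0.18 to 0.22) and DDIT3 (-0.071 to 0.30). In FGF19 + TNFα against TNFα they did so for ASNS (-0.063 to 0.0048) and CEBPB (-0.062 to 0.10), and in FGF19 + TNFα against Mock for SESN2 (-0.078 to 0.17). In FGF19 + TNFα against FGF19 they did so for ATF4 8180337 (-0.015 to 0.14), ATF4 8073148 (-0.15 to 0.15), DDIT3 (-0.29 to 0.24), DDIT4 (-0.054 to 0.51), TRIB3 (-0.12 to 0.15) and SESN2 (-0.050 to 0.20). For the interaction they did so for ATF4 8180337 (-0.047 to 0.11), ATF4 8073148 (-0.22 to 0.18), DDIT3 (-0.40 to 0.13), DDIT4 (-0.26 to 0.31), TRIB3 (-0.17 to 0.10), ASNS (-0.069 to 0.017) and CEBPB (-0.073 to 0.092).

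The replicate numbers were not treated as pairing, since replicate differences correlated over 0.1 in 1 of 6 pairs of groups (r from -0.02 to 0.20). A fit with the replicate number as a block called 7 of the 11 in FGF19 against Mock, 8 in FGF19 + TNFα against TNFα, 7 in FGF19 + TNFα against Mock, 1 in TNFα against Mock, 0 in FGF19 + TNFα against FGF19, 0 for the interaction and 6 by the F test.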
